A study of Mus musculus with 4 samples.

Results

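The lysosome group described here holds 37 genes: 20 acid hydrolases, 9 lysosomal membrane proteins, 3 hydrolase activators and lipid carriers, and 5 genes that tag or sort new hydrolases. Cathepsins and the proton pump are not in it. A gene was included through every probe set whose only platform symbol was its own. This gave 68 probe sets for 34 of the 37 genes, out of 12394 genes named on the array, and Arsb, Cd63 and Gnptg had no such probe set. All 34 genes had at least 1 probe set bright enough to be tested, and 61 of the 68 probe sets were tested.

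The arrays were 4 Affymetrix arrays of mouse osteoclast cultures, 2 wild-type and 2 NFATc1-deficient. All mice were C57BL/6 and carried floxed Nfatc1 alleles (NFATc1 fl/fl). The wild-type mice were MxCre- and the deficient mice MxCre+. Mx-Cre is a recombinase under an interferon-inducible promoter that is active in many blood cell types and in the liver, so the deletion was not restricted to osteoclasts. It was switched on by polyIC, and whether wild-type mice received polyIC, the age of the mice and which exons were deleted are unknown from the sources used here. Precursors were sorted as CD11b-, CD3e- and B220- cells positive for ckit and cfms, plated at 20000 per well, and grown for 3 days in MCSF and RANKL. Each array carried a pool of mice, 3 for replicate 1 and 4 for replicate 2. The submitters call the replicates biological, and p-values measure only the spread between these pools.

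Lysosomes break down proteins, sugars and lipids with hydrolases that work at acid pH. Most of these enzymes reach the lysosome because a phosphotransferase in the Golgi gives them a mannose 6-phosphate tag, which receptors recognise and carry to endosomes. Membrane proteins such as LAMP1 travel by signals in their own tails instead. Osteoclasts direct lysosomes to the plasma membrane facing bone, where the enzymes and acid are released to resorb it, and NFATc1 is the transcription factor that drives osteoclast formation downstream of RANKL.

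Most of the hydrolase genes measured fell without NFATc1 (11 of 19) and none rose. By their brightest probe sets, the membrane protein genes of this group changed in both directions. More of them fell when each gene was counted by the mean of its probe sets. In a further list of lysosomal genes some membrane protein genes fell and none rose. Beta-galactosidase (Glb1) and acid sphingomyelinase (Smpd1) fell most, to mean signals 4.16-fold and 4.00-fold below wild-type. Gnptab, the catalytic subunit of the tagging phosphotransferase, fell to 32.9% of its wild-type mean. Scarb2, the carrier of glucocerebrosidase, and Lamp1 rose to 176% and 134%. The mannose 6-phosphate receptors M6pr and Igf2r and the sorting receptor Sort1 did not pass the test.

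Of the 34 tested genes, 17 fell, 2 rose and 15 did not pass. Over all 7799 tested genes, 922 fell (11.8%) and 998 rose (12.8%). By class, 11 of 19 hydrolases fell and 0 rose, and 3 of 3 activators and lipid carriers fell. Among 8 membrane proteins 2 fell and 2 rose, and of 4 tagging and sorting genes 1 fell. The median change was -0.56 for hydrolases, -0.50 for activators and carriers, -0.15 for membrane proteins and 0.09 for the tagging and sorting genes, beside 0.03 over all tested genes. A change is given here in log2(signal + 23.3), deficient minus wild-type. The added 23.3 is the 25th percentile of all values, and it understates changes of dim genes. Calls come from limma's moderated test on the whole table, two-sided, with a Benjamini-Hochberg adjusted p under 0.05. Without NFATc1-deficient replicate 1 the number of genes that fell was 10, 8 of them hydrolases (7.39% of all tested genes fell then), and without the variance trend it was 9.

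**Figure D1:**
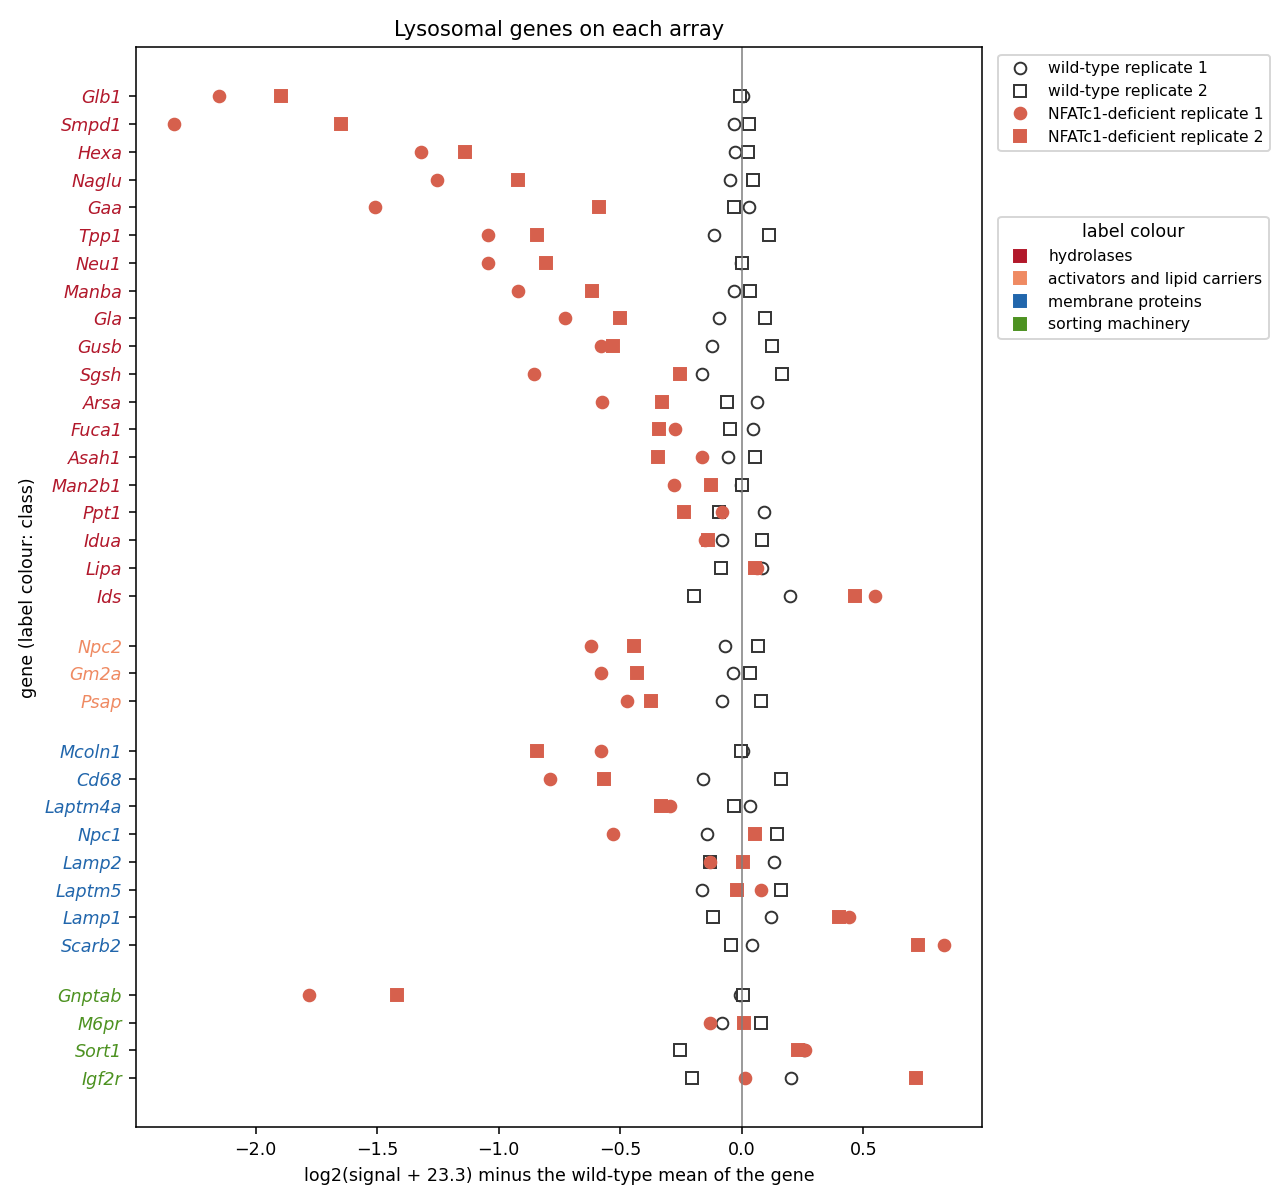
Signal of each of the 34 genes on each array, as log2(signal + 23.3) minus the wild-type mean of that gene, grouped by class (label colour). Open symbols are wild-type, filled symbols NFATc1-deficient, circles replicate 1 and squares replicate 2. For 17 genes that fell, both filled symbols lie to the left of both open ones, and for Scarb2 and Lamp1 they lie to the right.

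Array medians ranged from 111.6 to 130.0 signal units, and arrays of the same genotype correlated at 0.983 and 0.985 against 0.966 to 0.970 between genotypes. Nfatc1 itself had signals of 5433.6 and 6146.7 in wild-type and 3018.2 and 4097.9 in deficient replicates 1 and 2, a change of -0.71 (SE 0.15, adjusted p = 0.0102), and whether its probe sets lie in the deleted part is not known here. The osteoclast marker Acp5 had signals from 4074.3 to 12885.8 over both genotypes. All 7 measured osteoclast markers fell (Acp5, Calcr, Ctsk, Itgb3, Mmp9, Ocstamp and Oscar). Itgb3 was at 4.6 and 10.2 and Calcr at 17.0 and 41.6 in the deficient cultures. Together the 7 summed to 43326.8 and 49440.8 in wild-type and 19104.5 and 26211.9 in deficient replicates 1 and 2. The summed signal of 9 granulocyte markers was 5620.9 and 6320.0 in wild-type replicates 1 and 2 and 16179.3 and 7731.2 in deficient replicates 1 and 2, and 3 of the 9 rose (Ngp, S100a8 and S100a9). That of 10 macrophage markers was 17020.8 and 18210.3 against 16365.3 and 14434.9, with Cd14 higher and Csf1r lower, and without Csf1r the other 9 summed to 6268.7 and 4920.7 against 7224.7 and 5596.5. The 8 measured B and T lymphocyte markers summed to between 160.7 and 257.1 and none was bright enough to test. The mast cell and progenitor list summed to 583.4 and 444.9 in wild-type and 809.5 and 661.5 in deficient cultures. In it Cd34 (304.0 and 200.1 against 508.2 and 305.4) and Gata2 were higher on both deficient arrays. Kit was level (41.9 and 40.8 against 41.2 and 37.5) and Fcer1a lower (22.1 and 24.8 against 8.6 and 19.3). Erythroid and stromal lists summed to at most 376.3 on any array, and no gene of these 3 lists passed the threshold. Deficient replicate 1 had the highest granulocyte sum and the lowest osteoclast sum of all arrays. It also had the lower of the deficient signals for 16 of the 17 genes that fell. No such count was made over all tested genes, and the part of other cells in these changes was not tested. In bulk RNA, fewer cells of a type and less RNA per cell cannot be told apart.

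The glycosidases, which strip sugars from glycoproteins, glycolipids and matrix glycans, had the most falls. Of 11 tested, 8 fell, with a median change of -0.77. At their brightest probe sets all 11 had both deficient signals below both wild-type signals, an order seen in 29.6% of all tested genes. Glb1, which removes galactose from gangliosides and keratan sulfate, had signals of 2602.6 and 2579.9 in wild-type replicates 1 and 2 and 565.2 and 679.6 in the deficient ones. The wild-type pair was close together and both deficient arrays were far below it. Its mean fell from 2591 ± 16.1 to 622 ± 80.9 (SD, n = 2), which is -2.02 in log2 (SE 0.12, adjusted p = 7.43e-05). Hexa, the alpha subunit of the hexosaminidase that degrades GM2 ganglioside, had 7934.4 and 8243.1 in wild-type and 3221.7 and 3661.4 in deficient cultures. It fell by 1.23 (SE 0.11, adjusted p = 2.51e-04), with no overlap.

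Naglu, a heparan sulfate glucosaminidase, had 652.6 and 698.8 in wild-type and 269.2 and 345.5 in deficient cultures, a change of -1.09 (SE 0.16, adjusted p = 0.00209). Gaa, which degrades lysosomal glycogen, had 948.4 and 907.7 against 310.5 and 609.9, so the deficient arrays differed from each other by far more than the wild-type ones. Its change was -1.05 (SE 0.25, adjusted p = 0.0182), with -1.54 in replicate 1 and -0.56 in replicate 2. The call on Gaa was lost without the filter on dim probe sets (adjusted p = 0.0648) and without the variance trend (0.0742). Neu1, the lysosomal sialidase, had 588.0 and 589.1 against 273.5 and 326.8. It fell by 0.92 (SE 0.15, adjusted p = 0.00344), and the deficient arrays lay near 51.0% of the wild-type mean. Manba, the beta-mannosidase, had 954.7 and 1000.1 against 505.8 and 630.1, a change of -0.77 (SE 0.14, adjusted p = 0.00545).

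Gla, the alpha-galactosidase of globotriaosylceramide, had 988.1 and 1131.4 in wild-type and 629.0 and 739.5 in deficient cultures. It fell by 0.62 (SE 0.13, adjusted p = 0.0118), and the groups did not overlap. Without deficient replicate 1 its adjusted p was 0.0572, and without the variance trend 0.0524. Gusb, the beta-glucuronidase, had 5604.1 and 6657.4 against 4076.5 and 4218.9. Its change was -0.56 (SE 0.12, adjusted p = 0.00974), and the adjusted p was 0.0783 without that array, 0.0942 with median scaling and 0.0588 without the variance trend. At their brightest probe sets the remaining glycosidases lay lower in the deficient cultures without passing. Fuca1, the fucosidase, had a change of -0.31 (adjusted p = 0.0653), Man2b1, the alpha-mannosidase, -0.20 (0.211) and Idua, the iduronidase, -0.15 (0.569). The other probe set of Man2b1 was higher, with 113.4 and 151.1 against 182.3 and 182.8, a change of 0.41 (0.208). Those of Fuca1 had 0.05 and -0.15, and that of Idua -0.27, none of which passed. By brightest probe set, glycosidases ranged from -2.02 for Glb1 to -0.15 for Idua, whose signals were 296.3 and 334.8 against 281.0 and 284.0.

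The sulfatases act on sulfated glycans and sulfatide. Arsa, the sulfatide sulfatase, was the only one of 3 tested that fell. Its signals were 886.6 and 812.6 in wild-type and 561.6 and 672.0 in deficient cultures, a change of -0.45 (SE 0.14, adjusted p = 0.0423), the value nearest to the threshold among genes that passed. The call was lost under 6 of 13 other settings, with adjusted p up to 0.216 without deficient replicate 1. Sgsh, which acts on heparan sulfate, had 327.2 and 416.5 against 193.9 and 305.6, a change of -0.55 (SE 0.23, adjusted p = 0.115). Its arrays were spread within each genotype, although the groups did not overlap, and it passed in 4 other settings (lowest adjusted p = 0.0259, highest 0.534). Ids, the iduronate sulfatase, had 239.4 and 176.6 against 311.7 and 292.8. It was the only hydrolase whose brightest probe set was above both wild-type arrays on both deficient arrays. Its change of 0.51 (SE 0.19, adjusted p = 0.0951) did not pass, and its 2 other tested probe sets had 0.16 and -0.05.

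Among the lipid hydrolases 1 gene of 4 fell steeply. Smpd1, which cleaves sphingomyelin to ceramide, had 1938.7 and 2026.6 in wild-type and 373.9 and 616.5 in deficient cultures. Its mean fell from 1983 ± 62.2 to 495 ± 172 (SD, n = 2), which is -1.99 in log2 (SE 0.20, adjusted p = 4.29e-04), and the deficient arrays were apart by more than the wild-type ones. The acid ceramidase Asah1, the next enzyme of that pathway, had 3514.8 and 3796.3 against 3255.5 and 2873.1, a change of -0.25 (SE 0.11, adjusted p = 0.133). Ppt1, which removes palmitate from proteins, had a change of -0.16 (adjusted p = 0.427). Lipa, the cholesteryl ester lipase, had 2654.0 and 2357.5 against 2615.2 and 2598.6, with overlapping arrays and a change of 0.06 (SE 0.11, adjusted p = 0.739). The difference between Smpd1 and these genes was not tested. Tpp1, the lysosomal tripeptidyl peptidase and the only peptidase of the group, had 4834.5 and 5656.5 against 2520.3 and 2905.2. It fell by 0.94 (SE 0.12, adjusted p = 0.00123), and by 1.63 at its other probe set (adjusted p = 2.42e-04).

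**Figure D2:**
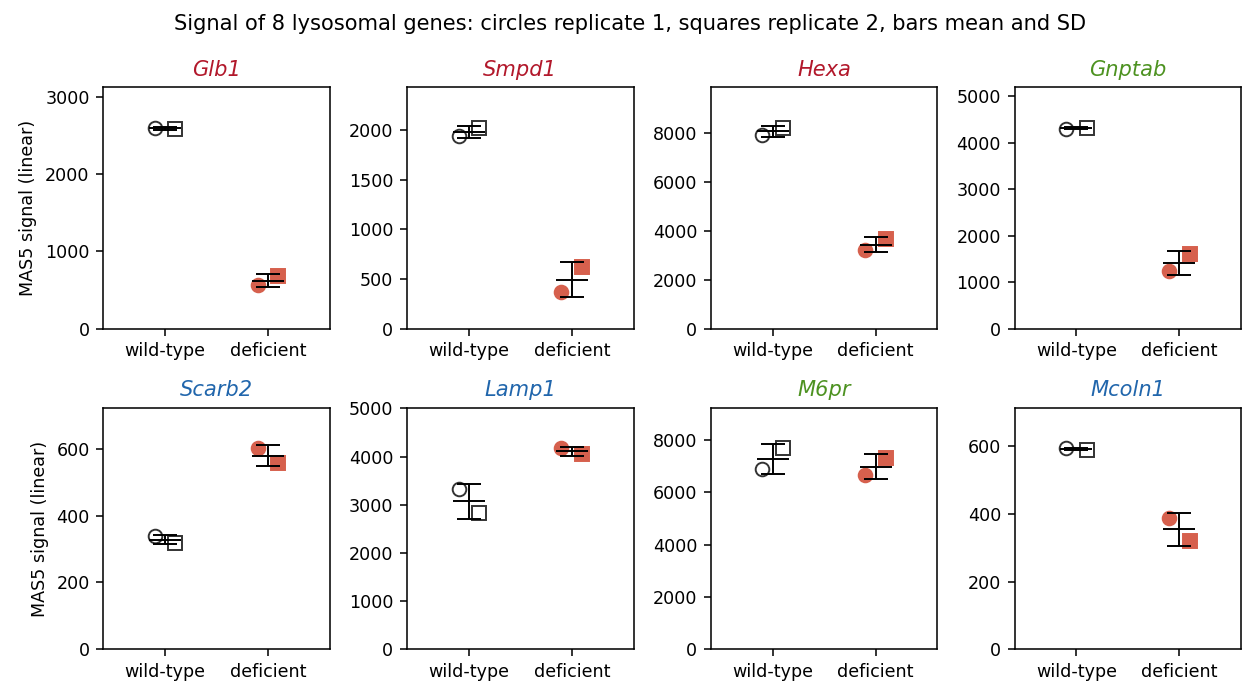
MAS5 signal on a linear axis from 0 for 8 genes, with circles for replicate 1, squares for replicate 2, and bars for mean and SD of the 2 arrays of a genotype. The deficient arrays lie below the wild-type ones for Glb1, Smpd1, Hexa, Gnptab and Mcoln1, above them for Scarb2 and Lamp1, and overlap them for M6pr.

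The hydrolase activators and lipid carriers were all lower, by similar amounts. Npc2, which carries cholesterol inside the lysosome, had 10521.4 and 11561.6 in wild-type and 7162.7 and 8109.7 in deficient cultures, a change of -0.53 (SE 0.12, adjusted p = 0.0113). Gm2a, which presents GM2 ganglioside to hexosaminidase, had 2840.2 and 2984.6 against 1943.0 and 2154.2 and fell by 0.50 (SE 0.11, adjusted p = 0.0103). Psap, the precursor of the saposins, had 7855.4 and 8789.6 against 5984.0 and 6414.8, a change of -0.42 (SE 0.11, adjusted p = 0.0245). In each case both deficient arrays lay below both wild-type arrays, and the deficient mean was 69.2% to 74.5% of the wild-type mean. None of the 3 passed without deficient replicate 1 (adjusted p = 0.0795 for Gm2a, 0.202 for Npc2 and 0.249 for Psap), and Npc2 (0.0539) and Psap (0.110) did not pass without deficient replicate 2 either. The same 3 genes also missed the threshold with median scaling (0.0840, 0.176 and 0.281) and without the variance trend (0.0606, 0.0608 and 0.0951), and Psap without the filter (0.0696).

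Of the 8 membrane proteins measured 2 fell, 2 rose and 4 did not pass. Mcoln1, the calcium channel TRPML1, had 593.6 and 589.3 in wild-type and 388.2 and 319.2 in deficient cultures and fell by 0.71 (SE 0.15, adjusted p = 0.0103). Cd68, a heavily glycosylated protein of macrophage and osteoclast lysosomes, had 8320.0 and 10388.5 against 5366.3 and 6268.6, a change of -0.68 (SE 0.14, adjusted p = 0.00864). The wild-type arrays of Cd68 were far apart, and without deficient replicate 1 its adjusted p was 0.102, with 0.0507 under median scaling and 0.0539 without the variance trend. Scarb2, the receptor LIMP-2 that carries glucocerebrosidase to lysosomes without the mannose 6-phosphate tag, had 338.9 and 318.2 against 602.3 and 557.3. It rose by 0.78 (SE 0.14, adjusted p = 0.00557), and its other probe set rose by 0.68 (adjusted p = 0.0320). Lamp1, an abundant glycoprotein of the lysosomal membrane, had 3334.0 and 2819.4 against 4176.4 and 4048.4, a change of 0.42 (SE 0.11, adjusted p = 0.0289). Its deficient arrays were above both wild-type ones, but the call was lost in 6 of 13 other settings. These were median scaling (0.171), no filter (0.0680), no variance trend (0.108), and leaving out wild-type replicate 2 (0.0935), deficient replicate 1 (0.143) or deficient replicate 2 (0.0846).

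Lamp2, the partner of LAMP1 in the same membrane, had overlapping signals of 2242.3 and 1864.0 in wild-type and 1864.6 and 2053.8 in deficient cultures. Its change was -0.06 (SE 0.12, adjusted p = 0.762), and its 4 probe sets ran from -0.06 to 0.20 with none past the threshold. Laptm4a had 3981.7 and 3809.5 against 3168.3 and 3091.4, a change of -0.31 (SE 0.10, adjusted p = 0.0513), the value nearest to the threshold among genes that did not pass. It passed under 5 of 13 other settings, with adjusted p from 0.0296 to 0.384. Npc1, which moves cholesterol out of the lysosome, had 273.0 and 338.4 against 203.5 and 317.0, with overlap and a change of -0.24 (SE 0.23, adjusted p = 0.497). Its soluble partner Npc2 passed and Npc1 did not, and the difference between them was not tested.

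Laptm5 was the only gene of the group whose probe sets disagreed in their calls. Its brightest probe set had 5005.9 and 6270.9 in wild-type and 5913.7 and 5522.2 in deficient cultures, a change of 0.03 (SE 0.13, adjusted p = 0.903). The others had 2800.3 and 2949.5 against 1737.0 and 1925.7, a change of -0.65 (adjusted p = 0.00365), and 1848.7 and 2096.8 against 984.7 and 1255.9, a change of -0.81 (adjusted p = 0.00424). The name of the brightest one ends in _x_at, which Affymetrix uses for probes that can match other transcripts. Those of the others end in _s_at, used for probes shared by several transcripts, so the same limit holds for the ones that fell. The brightest probe set of Gaa also ends in _x_at, and its other one fell by 1.28 (adjusted p = 0.00827). With each gene counted by the mean of its probe sets, 4 membrane proteins fell in place of 2.

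**Figure D3:**
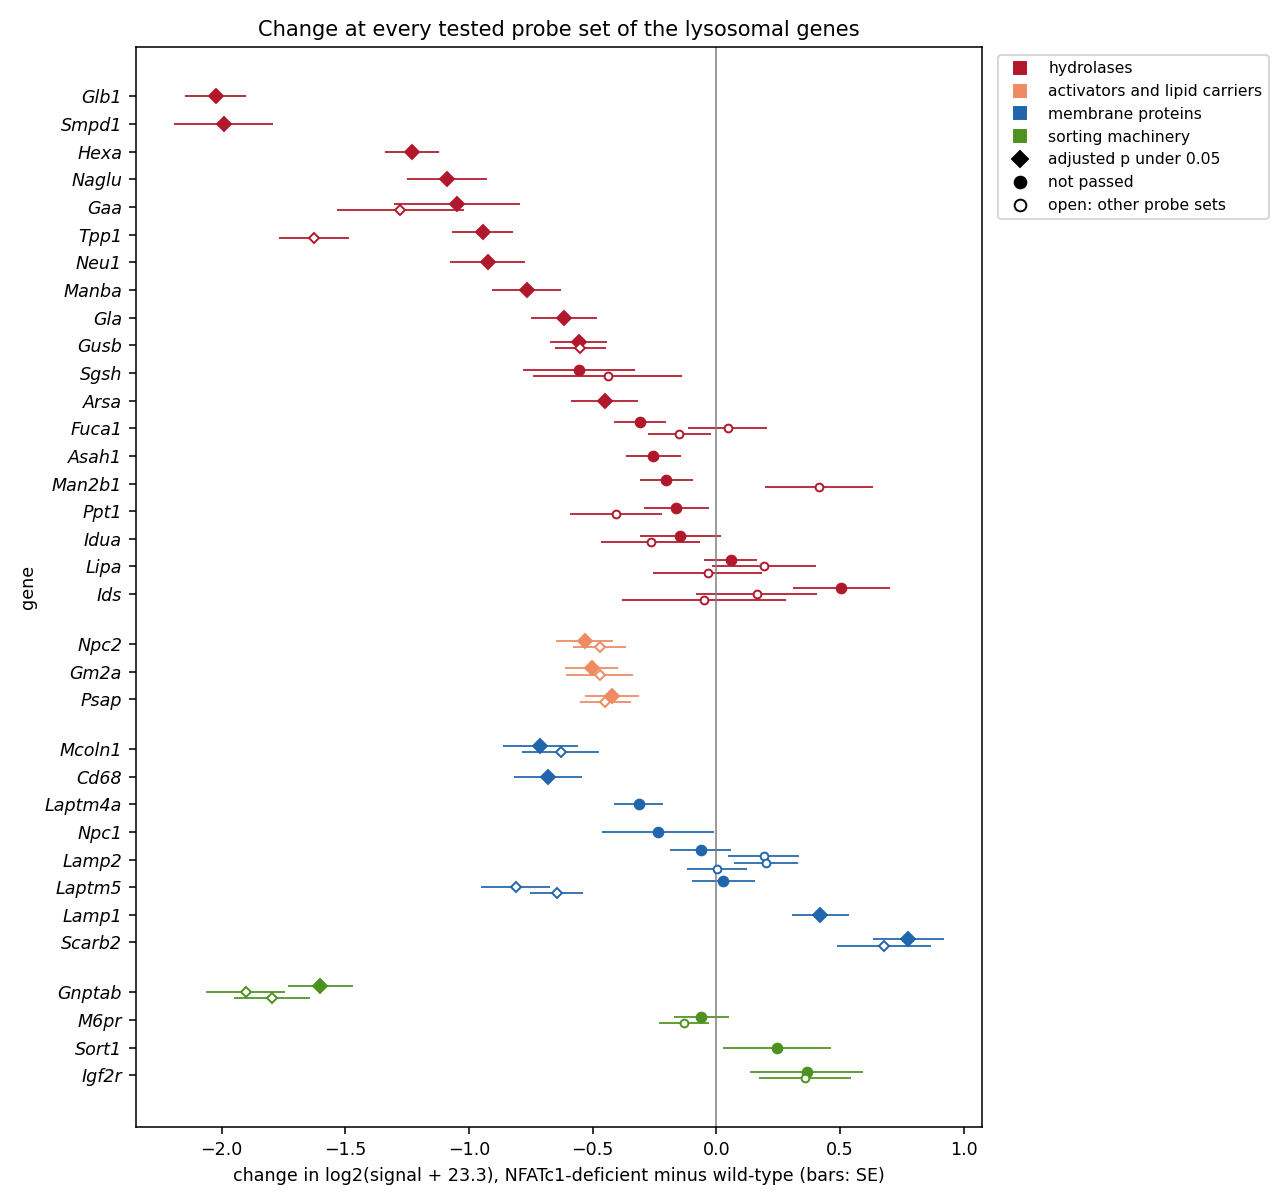
Change in log2(signal + 23.3), deficient minus wild-type, with its SE, at every tested probe set of the 34 genes. Filled symbols are the brightest probe set of a gene, open symbols the others, and diamonds passed the test. Of 20 genes with several tested probe sets, 19 had the same call at all of them, and Laptm5 did not.

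Across all 61 tested probe sets 28 fell, 3 rose and 30 did not pass, beside 11.4% lower and 12.8% higher over all 13575 tested. In the group, 6 genes had probe sets of both signs, of which Laptm5 alone had any that passed: Man2b1, Fuca1, Ids, Lipa, Lamp2 and Laptm5. The fall of Gnptab, Gaa, Tpp1, Gusb, Mcoln1, Npc2, Gm2a and Psap and the rise of Scarb2 passed at every tested probe set.

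Expression of the tagging enzyme's catalytic subunit fell, and none of the 3 receptors passed the test. Gnptab had 4297.8 and 4332.3 in wild-type and 1238.4 and 1599.7 in deficient cultures. Its mean fell from 4315 ± 24.4 to 1419 ± 255 (SD, n = 2), which is -1.60 in log2 (SE 0.13, adjusted p = 2.09e-04). All 3 probe sets fell, with -1.79 and -1.90 at the others, and on each both deficient arrays lay far below the wild-type pair. M6pr, the cation-dependent mannose 6-phosphate receptor, had overlapping signals of 6881.4 and 7694.2 against 6649.5 and 7324.6, a change of -0.06 (SE 0.11, adjusted p = 0.748). Igf2r, the larger receptor for the same tag, had 782.0 and 583.8 against 682.0 and 1127.5, a change of 0.37 (SE 0.23, adjusted p = 0.290). Only deficient replicate 2 of Igf2r stood above the rest, and without deficient replicate 1 the gene was higher by 0.72 (adjusted p = 0.0252, with up to 0.975 in other settings). Sort1, which also carries hydrolases to endosomes, had 233.7 and 157.3 against 234.4 and 229.9, a change of 0.25 (SE 0.22, adjusted p = 0.461).

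Taken by the brightest probe set of each gene, hydrolases and membrane proteins differed in how far each deficient array lay from the wild-type mean. Laptm5 counts here with a change of 0.03, although its other probe sets fell (-0.65 and -0.81). With the mean of all probe sets of a gene, more membrane proteins fell and their median change was lower. The median hydrolase was at -0.73 on deficient replicate 1 and -0.50 on deficient replicate 2. The median membrane protein was at -0.21 and -0.01, and the median of all tested genes at 0.00 and 0.05. On the wild-type arrays these medians lay between -0.03 and 0.03. They are equal and opposite because each gene is set against the mean of those same 2 arrays, which draws them towards 0. Of 19 hydrolases 17 had a change below 0, and 16 had both deficient signals below both wild-type signals. Over all 7799 tested genes 3643 had a change below 0, and 29.6% had both deficient signals below both wild-type signals. Of 8 membrane proteins 5 had a change below 0, 3 lay wholly below, 2 wholly above (34.2% of all tested genes did so) and 3 overlapped. Genes of a class are not replicates, so the difference between the classes has no test here.

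**Figure D4:**
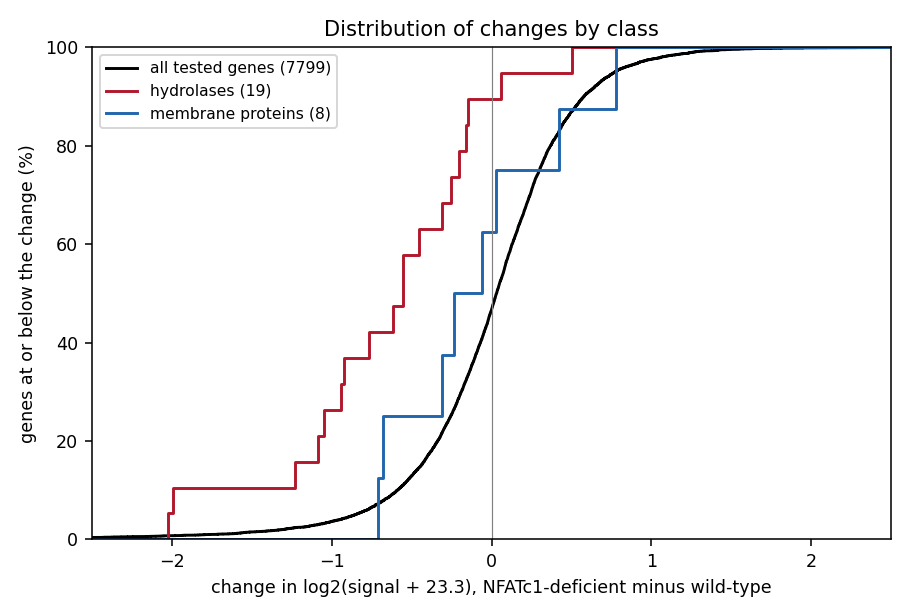
Cumulative share of genes (percent) at or below a given change in log2(signal + 23.3), deficient minus wild-type, for 19 hydrolases, 8 membrane proteins and all 7799 tested genes. The hydrolase line lies to the left of the line for all genes, with medians of -0.56 and 0.03, and the membrane protein line crosses it.

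Other genes of the lysosome were taken from 3 further lists. The first list also holds Gnpda1, a cytosolic enzyme, and Sumf1, an enzyme of the endoplasmic reticulum, so its counts are not of lysosomal genes alone. Gnpda1 is among those that fell (-0.66, adjusted p = 0.0449), and Sumf1 did not pass. Of 26 tested further lysosomal enzymes and membrane proteins 10 fell (38.5%, beside 11.8% of all tested genes) and 0 rose, with a median change of -0.32, and 5 fell without deficient replicate 1. Tmem192, a lysosomal membrane protein, had 1385.6 and 1550.4 in wild-type and 438.5 and 545.7 in deficient cultures, a change of -1.54 (SE 0.14, adjusted p = 2.72e-04). The serine carboxypeptidase Scpep1 fell by 1.00 (adjusted p = 8.20e-04), Lmbrd1, which exports cobalamin from lysosomes, by 0.85 (0.00159), and the sialic acid esterase Siae by 0.75 (0.0117). All probe sets of Scpep1, Lmbrd1 and Siae fell. Tmem192 had no other probe set to compare, and the name of its only one ends in _s_at. Besides Tmem192 and Lmbrd1, the membrane proteins Ctns (-0.73, adjusted p = 0.0397) and Glmp (-0.67, 0.00324) fell. Mfsd8, Cln3, Slc11a1, Slc29a3 and Hgsnat, also of the lysosomal membrane, did not pass. In this list, which was chosen with earlier results of these data known, falls were thus not confined to soluble enzymes.

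The trafficking list was near the background. Of its 27 tested genes 4 fell (14.8%, beside 11.8% of all tested genes) and 2 rose (7.41%, beside 12.8%), with a median of -0.03, and without deficient replicate 1 these counts were 1 and 1. Vps39, a subunit of the HOPS tether that joins endosomes to lysosomes, had 567.4 and 607.5 in wild-type and 151.6 and 251.1 in deficient cultures, a change of -1.48 (SE 0.22, adjusted p = 0.00213). The adaptor Gga1, which loads mannose 6-phosphate receptors into vesicles, fell by 0.78 (0.0270), and Ap3d1, the delta subunit of AP-3, which routes membrane proteins to lysosomes, by 0.58 (0.0124). Snx1, a sorting nexin that returns receptors from endosomes to the Golgi, rose by 0.78 (0.00137). Ap3b1, another AP-3 subunit, fell by 0.51 (0.0345) and Ap1g1, of the clathrin adaptor complex AP-1, rose by 0.56 (0.0370), each at its brightest probe set only.

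The MiT/TFE factors are the transcription factors known to drive lysosomal genes, and 1 of 3 tested fell. Tfec had 1726.0 and 1902.3 in wild-type and 1133.5 and 1385.4 in deficient cultures, a change of -0.52 (SE 0.13, adjusted p = 0.0191), which did not pass with median scaling, without the variance trend or without deficient replicate 1. The brightest probe set of Mitf did not pass, with a change of -0.37 (adjusted p = 0.0677), and its other one fell by 1.15 (0.00304). Tfeb had 457.6 and 237.4 against 186.3 and 285.2, with overlap and a change of -0.48 (SE 0.30, adjusted p = 0.292).

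Promoter windows were examined because MiT/TFE factors bind E-boxes, and many lysosomal promoters are known to hold them. RefSeq windows of GRCm38.p6, from 250 bases before to 50 after a start, were found for 33 of the 37 genes, and windows of Asah1, M6pr, Npc1 and Sort1 were not used here. The E-box CACGTG, which reads the same on both strands, was in the windows of 10 of these 33 genes (30.3%), against 8.09% of 27025 genes with a window and 12.4% of the 6433 of them tested here. The longer TCACGTG, which contains it, was in the same 10 (4.29% and 7.24% of the 2 backgrounds), and TCACGTGA, which contains both, in 4 (1.12% and 2.33%). The letters TGACTCA, known to be bound by AP-1 transcription factors and called AP-1 letters here, were in 5 (15.2%), against 5.95% and 4.83%. The looser TGANTCA, which covers TGACTCA, was in the same 5 (8.97% and 6.47%). Both strands were searched, and a match describes letters, not binding.

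The 250 bases before the start are shown for Glb1, the gene with the largest fall, and for Lamp1, which rose and had the most E-boxes. Capitals mark CACGTG and, in Glb1 alone, the AP-1 letters, which read TGAGTCA on the strand shown and share their last bases with the E-box. Glb1 lies at chr9:114400828-114401077, plus strand, and Lamp1 at chr8:13158911-13159160, plus strand, both in GRCm38.p6.
Glb1: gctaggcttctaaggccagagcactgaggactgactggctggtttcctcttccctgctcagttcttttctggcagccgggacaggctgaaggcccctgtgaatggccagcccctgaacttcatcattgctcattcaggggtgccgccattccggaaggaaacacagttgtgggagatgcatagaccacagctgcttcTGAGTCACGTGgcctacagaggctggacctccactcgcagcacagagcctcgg
Lamp1: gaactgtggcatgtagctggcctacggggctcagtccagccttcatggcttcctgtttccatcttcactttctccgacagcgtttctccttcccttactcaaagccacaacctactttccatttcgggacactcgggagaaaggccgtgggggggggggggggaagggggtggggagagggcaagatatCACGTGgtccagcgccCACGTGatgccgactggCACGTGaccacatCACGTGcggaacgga

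Lamp1 had 4 E-boxes, starting 61, 45, 28 and 15 bases before the start, and Glb1 had 1, 48 bases before it. Stretches of 60 bases around the E-boxes of the other 7 measured genes are shown to compare their flanks, again with CACGTG in capitals and in GRCm38.p6. The Naglu stretch is chr11:101069994-101070053, plus strand. The Gaa stretch is chr11:119267796-119267855, plus strand. The Mcoln1 stretch is chr8:3500434-3500493, plus strand. The Gla stretch is chrX:134601184-134601243, minus strand. The Arsa stretch is chr15:89477408-89477467, minus strand. The Sgsh stretch is chr11:119355507-119355566, minus strand. The Igf2r stretch is chr17:12769702-12769761, minus strand.
Naglu: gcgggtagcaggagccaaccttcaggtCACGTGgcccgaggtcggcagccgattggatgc
Gaa: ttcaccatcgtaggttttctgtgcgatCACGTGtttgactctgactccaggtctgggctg
Mcoln1: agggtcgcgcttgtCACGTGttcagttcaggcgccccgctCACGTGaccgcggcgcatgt
Gla: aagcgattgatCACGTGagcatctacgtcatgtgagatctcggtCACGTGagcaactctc
Arsa: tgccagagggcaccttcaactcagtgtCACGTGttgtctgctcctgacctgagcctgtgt
Sgsh: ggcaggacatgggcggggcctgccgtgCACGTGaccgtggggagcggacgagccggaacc
Igf2r: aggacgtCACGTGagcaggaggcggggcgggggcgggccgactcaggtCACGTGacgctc

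Naglu, Gaa, Mcoln1, Gla and Arsa fell, and Sgsh and Igf2r did not pass. Mcoln1, Gla and Igf2r each held a pair of E-boxes. Those of Gla were the farthest out, 227 and 194 bases before the start, and those of Igf2r lay 48 and 7 bases before it. Of the 9 measured genes with an E-box 6 fell, 1 rose and 2 did not pass, with a median change of -0.62. Of the 21 measured genes with a window but no E-box 11 fell, 1 rose and 9 did not pass, with a median of -0.42. Smpd1, Hexa, Gnptab and Scarb2, among the largest changes of the group, had no CACGTG in the window. Cd68, Glb1, Neu1 and Psap held TGACTCA and fell, and Laptm4a held it and did not pass.

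**Figure D5:**
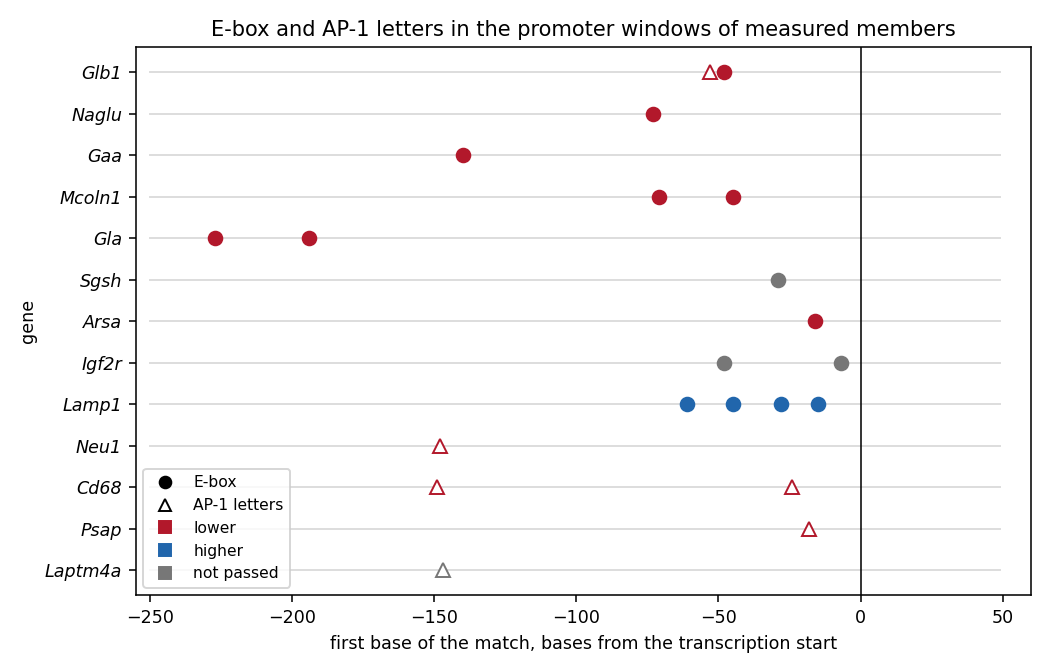
Position of E-box letters (filled circles) and AP-1 letters (open triangles) in bases from the transcription start for the 13 measured genes that hold either. Colour gives the call: lower, higher or not passed. The 4 E-boxes of the Lamp1 window lie within the last 61 bases before the start, and E-boxes of genes that fell lie between 227 and 16 bases before it.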

How the data were processed

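The authors deposited 1 linear intensity per probe set and array, and the submitters' processing notes name MAS5. MAS5 scales each array by 1 factor, and means trimmed by 2% at each end ran from 500.186 to 500.211 over the 4 arrays. Its version and any detection calls are unknown here, so how a low signal stands to background cannot be said. Platform annotation named 20393 of 22690 probe sets with 1 symbol, 691 with several and 1606 with none.

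After 64 control probe sets were left out, log2(signal + 23.3) was taken, and a filter at the 40th percentile of mean signal left 13575 probe sets, tested with limma 3.58.1 in R 4.3.3 (lmFit, eBayes with an intensity trend, 2 genotypes, no block). P-values were adjusted over all of them. The brightest tested probe set stood for a gene. Every member was accounted for, with signals per array for those that passed and for the extremes of each class. Of each further list up to 4 genes with the largest change among the tested were named. Ap3b1, Ap1g1 and the membrane proteins Ctns, Glmp, Mfsd8, Cln3, Slc11a1, Slc29a3 and Hgsnat were added after their values were seen. The members and lists were chosen with earlier results of these data known. Only the limma fit was tested on simulated data. Protein sequence features that had been planned were not analysed here. Alternatives covered scaling, pseudocount, filter, variance trend, replicate block, each array left out, and the probe sets used. With 2 arrays per genotype, their number limits the precision.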

Additional observations from a re-analysis of the deposited data

How the results depend on the processing

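Of the 19 genes that passed, 10 kept the call and direction in all 13 settings run for them: Hexa, Glb1, Naglu, Neu1, Manba, Smpd1, Tpp1, Mcoln1, Gnptab and Scarb2. The other 9 lost it in at least 1, and 5 of the 15 that did not pass (Fuca1, Ids, Sgsh, Laptm4a and Igf2r) did so in at least 1. No scaling moved the median of all genes by over 0.0120.

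Without the variance trend 9 genes fell (7 hydrolases and 1 membrane protein) and 1 rose, with 1 trafficking gene lower and 1 higher and 0 MiT/TFE factors lower. Median scaling left 1 membrane protein lower, 1 higher and 0 MiT/TFE factors lower. Without the filter 1 member rose, a membrane protein, and 6 further lysosomal genes, 2 trafficking genes lower and 1 higher passed. Of all 12393 genes 5.50% fell and 5.43% rose in that setting. With the mean of all probe sets of a gene 4 membrane proteins fell, with a median of -0.28. The median over all members was -0.42 with quantile normalization, -0.43 with median scaling, -0.41 with the pseudocount at the 50th percentile, -0.45 with the filter at the 60th, -0.46 with the mean of all probe sets and -0.45 without _x_at and _s_at probe sets, a setting chosen after seeing the data.

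Leaving out 1 array gave 10 to 17 members lower and 1 to 3 higher, 8 to 12 hydrolases lower, and 1 to 2 membrane proteins lower and 1 to 2 higher. The median ran from -0.55 to -0.34 for members, -0.73 to -0.50 for hydrolases and -0.21 to -0.0072 for membrane proteins. Further lysosomal genes lower ran from 5 to 10, trafficking genes from 1 to 4 lower and 1 to 2 higher, and MiT/TFE factors from 0 to 2. The lowest member count came without NFATc1-deficient replicate 1; the lone array left in its genotype is then assumed to vary like the others.

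With replicate number as a replicate block 20 members and 13 hydrolases fell and 2 MiT/TFE factors were lower, while 14.0% of all tested genes fell and 15.3% rose. Without the block 922 of all genes fell and 998 rose, against 649 and 579 without the variance trend and 576 and 494 without deficient replicate 1. The samples share only a number in the labels, and deviations of same-numbered arrays correlated at 0.13. The causes of these shifts were not tested.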
